A study of Mus musculus with 4 samples.

Results

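The genes described here are the subunits and regulators of the proteasome, taken as every gene on the array whose name in the files begins with Psm, a letter from a to g and a number. The rule found 44 of 27745 gene names, covered by 69 of 41174 non-control probes, and it used no measured value. Each gene was read from 1 probe, the one with the brightest mean signal over the 4 arrays; 25 genes had a single probe and 19 had several. They comprised 7 alpha-ring subunits, 7 constitutive beta-ring subunits, 3 immunoproteasome subunits, 6 ATPases and 3 other subunits of the base, 8 lid subunits, 3 chaperones of base assembly, 5 activators or inhibitors, the testis alpha subunit Psma8 and Psmc3ip. Psmc3ip carries the name stem but is a meiotic recombination factor and no proteasome subunit.

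The series compared mRNA of CD4+ T cells of BALB/c mice, from spleen and lymph nodes, on 1-colour arrays. Untransduced samples were naive T cells, sorted as CD4+CD25- with high CD62L, and natural regulatory T cells, sorted as CD4+CD25+ and called Treg below. In the other 2 samples, Treg carried a lentivirus with a GFP reporter and a short hairpin RNA, aimed at Eos (si-Eos) or at Renilla luciferase (si-RL, the control); they spent 60 h in medium with human IL-2 and were sorted for GFP. Each group was 1 array, so there was no replicate, no test was possible and every difference compares 2 libraries. Comparing a hairpin library with Treg also compares culture, IL-2, virus and GFP sorting with their absence. Whether animals were pooled was not given in the sources used here.

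The proteasome is the protease that degrades most ubiquitin-tagged proteins of the cytosol and nucleus. Its core is a barrel of alpha rings, which gate the entrance, around beta rings, which hold the active sites; a regulatory particle with a base of ATPases and a lid recognises, unfolds and feeds in the substrate. In lymphocytes and under interferon-γ the catalytic beta subunits Psmb5, Psmb6 and Psmb7 are replaced by Psmb8, Psmb9 and Psmb10 to form the immunoproteasome, which shapes the peptides presented on MHC class I.

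Levels below are multiples of each array's 75th percentile of the processed signal, which was 303 in naive cells, 392 in Treg, 320 in the si-Eos-labelled library and 262 in the si-RL-labelled library. A difference is on the log2 scale, and the ± beside it is the scanner software's error of both spots, a technical error only. Of all probes, 64% to 68.3% were well above background on each array, as were 43 of the 44 proteasome genes on every array. A gene counts as called where 2 arrays differed by at least 2-fold with signal well above background on each. Eos mRNA (Ikzf4) goes against the hairpin labels: it was higher in the si-Eos-labelled library than in the si-RL-labelled library on all 3 of its probes, by 0.93, 1.96 and 1.19. If these labels were exchanged, each sign between the hairpin libraries would turn and the comparisons of each with Treg would swap places. The markers of the cells differed as well. All 7 Treg markers were well above background on every array. Their summed level was 27.5 in naive cells, 148 in Treg, 322 in the si-Eos-labelled library and 120 in the si-RL-labelled library. Tnfrsf18 made up most of each sum, at 24.1, 81.7, 237 and 109 in the same order. In the si-RL-labelled library, 5 of the 7 were called lower against Treg and 0 higher, beside 8.19% and 7.9% of all genes. Their median in that comparison was -2.43. All 5 naive T cell markers were also well above background on every array, summing in the order above to 164, 58.6, 45.8 and 136. Foxp3, the transcription factor that defines Treg, read 0.213, 4.54, 8.26 and 0.42 in that order. The 6 T cell markers found summed to between 134 and 233. The 6 B cell markers summed to 27.1 in naive T cells and 29.3 in Treg against 1.95 and 1.21 in the si-Eos- and si-RL-labelled libraries, mostly from Jchain, which was not well above background in the si-Eos-labelled library. Myeloid markers summed to between 1.41 and 1.57, with Itgam well above background in naive T cells alone and Lyz2 in neither hairpin library. Natural killer and CD8 T cell markers summed to between 2.2 and 4.75. Of these, Cd8b1 read 3.84, 2.91, 2.38 and 1.91 in the order above, and Gzma 0.0641, 0.138, 1.63 and 0.00903. Gzma was not well above background in the si-RL-labelled library. The part of these differences in the results below was not tested.

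With the processing used here, proteasome mRNAs were closely matched between Treg and naive T cells and differed between the hairpin libraries. Between the si-Eos- and si-RL-labelled libraries, 41 of 43 measured genes were higher in the si-Eos-labelled library, with a median of 0.65 (range -0.39 to 1.66). Over all 17146 genes measured, 52.3% were higher and the median was 0.04; among the brightest 20% of genes it was 0.14. Of the 43 genes, 9 were called higher, 1 of them Psmc3ip, and 0 lower, where 10.7% of all genes were called higher and 10.2% lower. The median kept its sign under every setting run and ranged from 0.52 to 0.72. In bulk RNA, fewer cells of a type and less RNA per cell cannot be told apart.

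**Figure D1:**
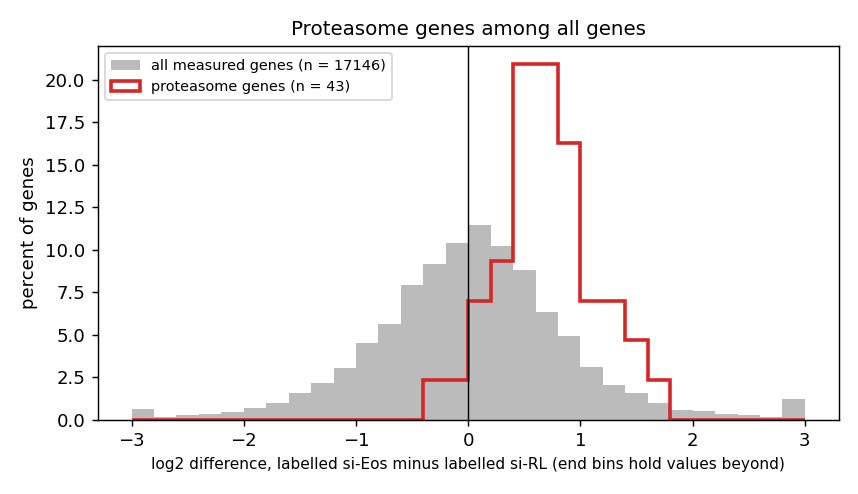
Distribution of the log2 difference between the si-Eos-labelled library and the si-RL-labelled library (x axis) as percent of genes (y axis), for all 17146 measured genes (grey) and the 43 measured proteasome genes (red outline). The proteasome genes lie between -0.39 and 1.66, with 41 of 43 above 0.

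Against untransduced Treg, the si-Eos-labelled library had higher levels of 39 of 44 proteasome genes, with a median of 0.54, where 54.1% of all genes were higher. Of these, 5 of 44 were called higher and 0 lower, beside 8.83% and 10.1% of all genes. That count followed the setting, from 1 higher with quantile normalization to 21 higher with normexp background correction, and with normexp or spike-in scaling 1 was called lower. The median stayed above 0 under every setting run, from 0.21 to 0.98. In the si-RL-labelled library the median against Treg was -0.21, but its sign turned to 0.24 with normexp background correction. Of 43 genes 15 were higher and 28 lower there, beside 49.6% of all genes higher. Among them 0 were called higher and 2 lower, beside 7.9% and 8.19% of all genes. Both comparisons use the same Treg array.

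Between Treg and naive T cells the median was -0.01, with 19 of 43 genes higher and 24 lower beside 47.5% of all genes higher. Its sign followed the setting, from -0.36 to 0.28. Set against the median of all genes, it was 0.01 as reported, 0.14 with quantile normalization and -0.57 with normexp background correction. The differences ran from -0.29 for Psmd4 to 0.47 for Psmd3. None of 43 was called, beside 5.52% of all genes called higher and 2.03% lower. By array, 35 of the 43 genes were highest in the si-Eos-labelled library and 26 were lowest in the si-RL-labelled library. The 7 genes highest in naive T cells were Psmb1, Psmb9, Psmb10, Psmd5, Psmd10, Psme1 and Psme2. This rank rests on small differences. Treg was within the scanner error of naive T cells for Psmb9 (-0.08), Psmd5 (-0.18), Psmd10 (-0.14), Psme1 (-0.05) and Psme2 (-0.15). For all 7 genes the sign for Treg against naive T cells turned under at least 1 other setting.

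**Figure D2:**
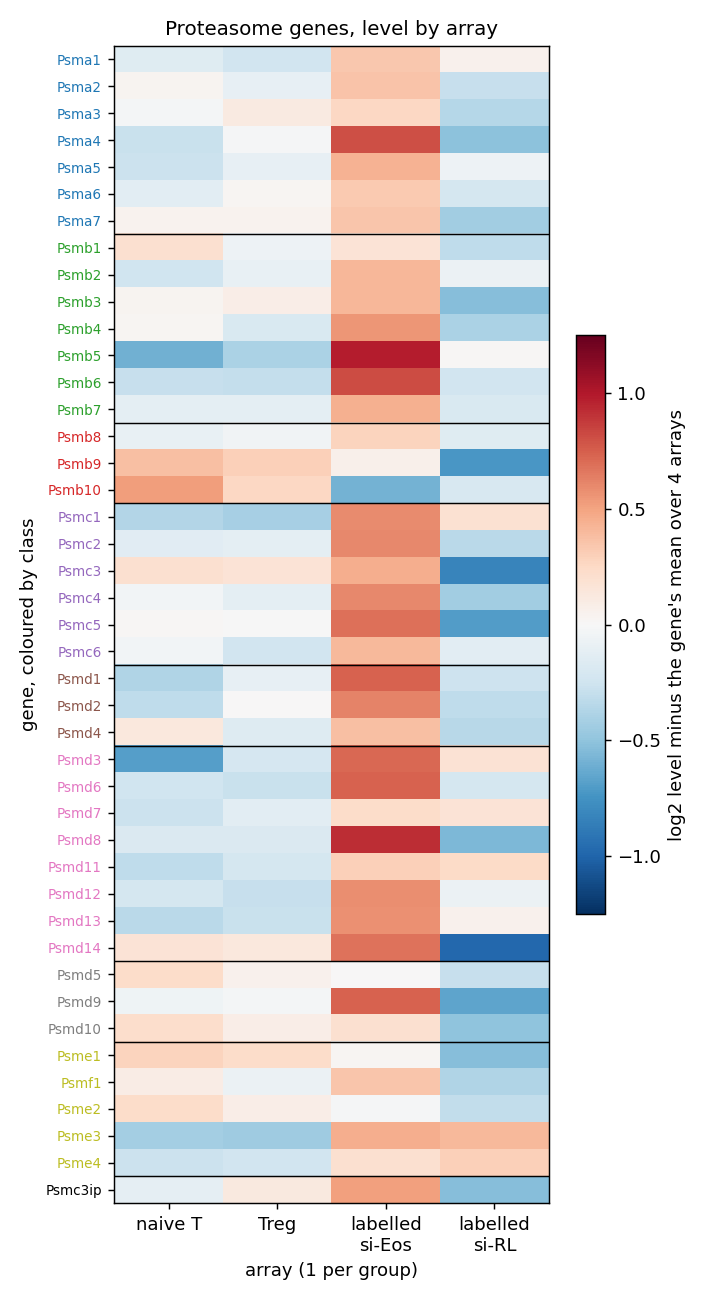
Log2 level of each proteasome gene on each array minus the gene's own mean over the 4 arrays (colour, red high and blue low), with genes in rows, coloured by class and parted by lines, and 1 array per column. The column labelled si-Eos is the highest for 35 of 43 genes, and Psmb10 is the gene at its lowest there.

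The subunits of the core, base and lid found by the name rule moved together in the si-Eos-labelled library. They were 14 alpha and constitutive beta subunits of the core and 17 subunits of the regulatory particle. All were higher in the si-Eos-labelled library than in either the si-RL-labelled library or Treg. However, quantile normalization and the mean of all probes each left 29 of the 31 higher against the si-RL-labelled library. Spike-in scaling left 25 of 31 higher against Treg. With the second brightest probe 29 were measured, of which 27 and 26 were higher. Over these 31 genes the median was 0.72 against the si-RL-labelled library and 0.62 against Treg, and 7 and 5 of them were called higher. The class medians between the hairpin libraries were 0.98 for the base ATPases, 0.94 for the other base subunits, 0.94 for the constitutive beta ring, 0.62 for the alpha ring, 0.70 for the base chaperones, 0.59 for the lid, 0.42 for the immunoproteasome and 0.28 for the activators and inhibitor. All of these medians stayed above 0 under every setting run. Classes hold 3 to 8 genes with overlapping ranges, so no order of the classes is drawn from them.

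**Figure D3:**
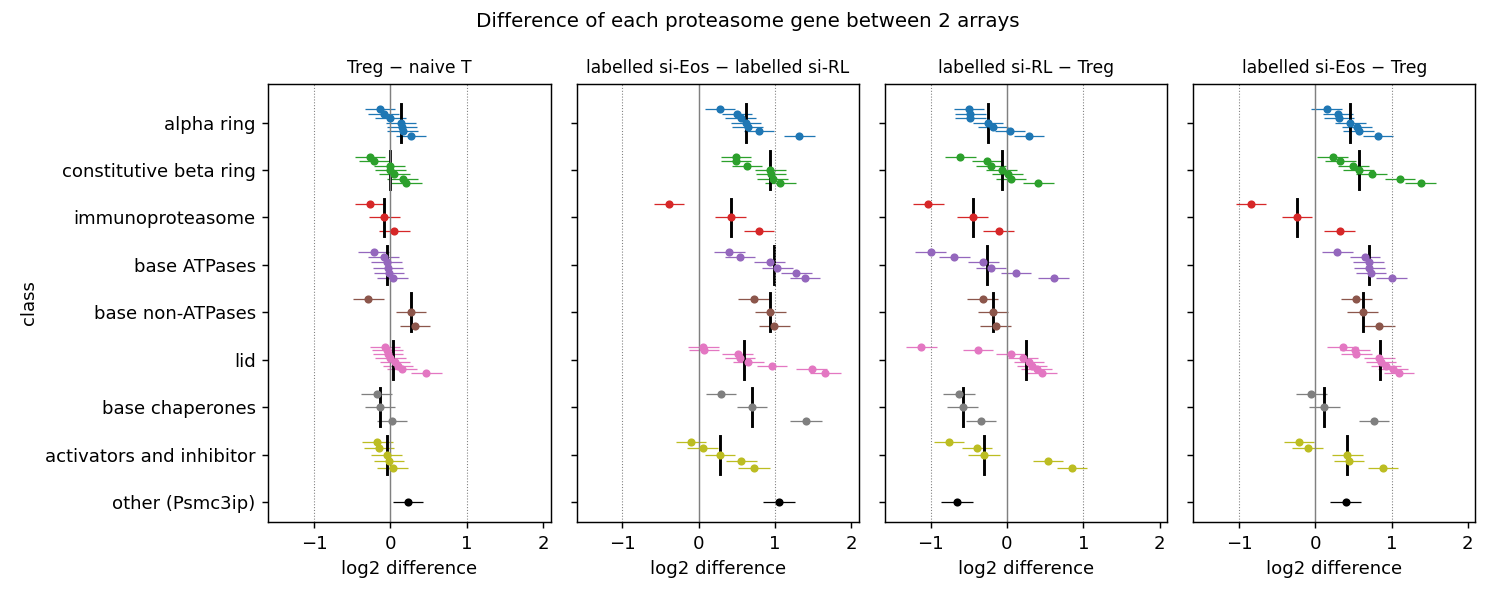
Log2 difference of each proteasome gene (points; bars are the scanner software's error, thick ticks the class median) in 4 comparisons of 2 arrays, by class. The points scatter around 0 for Treg against naive T cells, and nearly all lie above 0 where the si-Eos-labelled library is set against the si-RL-labelled library or against Treg, with Psmb10 below 0 in both. Dotted lines mark a 2-fold difference; the median position for the si-RL-labelled library against Treg turns from -0.21 to 0.24 with normexp background correction.

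The alpha subunits form the outer rings of the core and the gate through which substrates enter. All 7 were higher in the si-Eos-labelled library than in the si-RL-labelled library, from 0.28 for Psma1 to 1.32 for Psma4. Psma4 (chr9:54752821-54753020, mm8) read 4.39 in naive cells, 5.29 in Treg, 9.36 in the si-Eos-labelled library and 3.74 in the si-RL-labelled library. The si-Eos-labelled library was the highest of the 4, and the si-RL-labelled library was the lowest, at -0.50 ± 0.20 against Treg. The difference between the hairpin libraries was 1.32 ± 0.20 (2.5-fold), and the second Psma4 probe gave 1.15. Psma7, which read 37.8 in both naive T cells and Treg, read 46.7 in the si-Eos-labelled library and 27.1 in the si-RL-labelled library, a difference of 0.79 ± 0.20. In the si-RL-labelled library against Treg, the alpha subunits ran from -0.50 for Psma4 to 0.29 ± 0.20 for Psma1, with Psma5 at 0.04 and Psma2 at -0.18. Only Psma4 kept its sign under every setting run (-0.89 to -0.05). The sign of each other alpha-ring subunit turned, as for Psma1 (-0.10 to 0.83) and Psma2 (-0.57 to 0.24). With normexp background correction the alpha-ring median in this comparison turned from -0.25 to above 0.

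The constitutive beta ring holds the 3 active sites of the standard core, those of Psmb5 (chymotrypsin-like), Psmb6 (caspase-like) and Psmb7 (trypsin-like), and 4 subunits without activity. Between the hairpin libraries the 7 genes spanned a difference of 0.49 (Psmb1 and Psmb2) to 1.07 (Psmb6), all higher in the si-Eos-labelled library. Psmb3, a subunit without activity, read 25.7 in naive cells, 26.5 in Treg, 33.4 in the si-Eos-labelled library and 17.4 in the si-RL-labelled library. Its difference between the hairpin libraries was 0.94 ± 0.20 on the probe used and 1.75 on the other. Psmb4 was similar, at 31.2, 26.9, 45 and 23.2 in the same order.

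To show the control regions of the genes in which the core and the immunoproteasome differ, the 250 bases before the start of each gene are printed 5′ to 3′ on the gene's strand, from RefSeq's annotation of mouse build GRCm38.p6. Capitals mark matches to any of 3 short motifs searched on both strands: the antioxidant response element (TGACNNNGC), to which Nrf1, the product of Nfe2l1 and an activator of proteasome genes, binds; the gamma-activated site (TTCNNNGAA), a response element of interferon-γ; and the interferon-stimulated response element (GAAA, any 2 bases, GAAA).
Psmb5 (chr14:54617996-54618245, minus strand): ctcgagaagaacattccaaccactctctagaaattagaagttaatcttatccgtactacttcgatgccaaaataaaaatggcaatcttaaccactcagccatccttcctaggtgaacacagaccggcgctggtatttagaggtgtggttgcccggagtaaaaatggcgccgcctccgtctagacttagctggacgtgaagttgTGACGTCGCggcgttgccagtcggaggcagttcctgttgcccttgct
Psmb6 (chr11:70525107-70525356, plus strand): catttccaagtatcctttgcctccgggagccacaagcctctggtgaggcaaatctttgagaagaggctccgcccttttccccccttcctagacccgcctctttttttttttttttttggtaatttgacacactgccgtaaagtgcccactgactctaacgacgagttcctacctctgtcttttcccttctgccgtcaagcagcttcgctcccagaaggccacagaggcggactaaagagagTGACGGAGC
Psmb8 (chr17:34197945-34198194, plus strand): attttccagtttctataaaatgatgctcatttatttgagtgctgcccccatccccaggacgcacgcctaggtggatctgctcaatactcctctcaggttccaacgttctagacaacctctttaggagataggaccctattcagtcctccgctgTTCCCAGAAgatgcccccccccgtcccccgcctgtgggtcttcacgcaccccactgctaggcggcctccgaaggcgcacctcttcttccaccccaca
Psmb9 (chr17:34187331-34187580, minus strand): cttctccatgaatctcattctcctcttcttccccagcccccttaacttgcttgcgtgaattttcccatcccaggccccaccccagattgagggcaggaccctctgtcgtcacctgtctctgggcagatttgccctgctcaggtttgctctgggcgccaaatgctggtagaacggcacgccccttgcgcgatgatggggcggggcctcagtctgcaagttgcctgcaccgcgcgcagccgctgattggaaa
Psmb10 (chr8:105938393-105938642, minus strand): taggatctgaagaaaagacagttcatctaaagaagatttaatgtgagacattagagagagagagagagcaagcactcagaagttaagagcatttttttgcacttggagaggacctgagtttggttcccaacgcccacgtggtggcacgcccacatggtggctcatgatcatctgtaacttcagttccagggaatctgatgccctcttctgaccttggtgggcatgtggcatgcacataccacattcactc
The constitutive genes Psmb5 and Psmb6 each hold an antioxidant response element match, at bases -47 to -39 and -9 to -1 from the start. Psmb8 holds a gamma-activated site match at -97 to -89, and the windows of Psmb9 and Psmb10 hold no match, which says only that these letters are not there. The RefSeq promoter table used here matched 37 of the 44 genes, with 40 promoters, and not Psmb1, Psmb2, Psmb7, Psmc3, Psmd3, Psmd7 and Psma8. The antioxidant response element was in 5 of these 40 promoters (12.5%) and in 10.2% of all 32851 promoters, the gamma-activated site in 1 (2.5%) against 7.02%, and the interferon-stimulated response element in 3 (7.5%) against 2.98%. The 5 genes with the first match were Psmb5, Psmb6, Psmc6, Psmd9 and Psmd12, whose differences between the hairpin libraries were 0.97, 1.07, 0.54, 1.40 and 0.65. A match is a stretch of letters and no shown binding site.

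The 3 catalytic subunits and their immunoproteasome counterparts were set side by side within each array, because a ratio of this kind does not move when an array is scaled by a single factor. In both hairpin libraries, each constitutive subunit gained on the counterpart that replaces it, relative to Treg. Psmb5 (chr14:53568529-53568588, mm8) read 4.15 in naive cells, 4.81 in Treg, 12.5 in the si-Eos-labelled library and 6.37 in the si-RL-labelled library. Its counterpart Psmb8 (chr17:33811095-33811419, mm8) read 52.5, 54.2, 67.6 and 50.4 in the same order. Psmb5 was highest in the si-Eos-labelled library, 1.38 ± 0.20 above Treg (2.59-fold), while Psmb8 was 0.32 ± 0.20 above Treg. The Psmb5 to Psmb8 ratio was 1.06 ± 0.29 higher than in Treg on the log2 scale, or 2.08-fold. In the si-RL-labelled library that ratio was 0.51 ± 0.29 above Treg.

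Psmb6 (chr11:70343707-70343766, mm8) read 16.6 in naive cells, 16.5 in Treg, 35.7 in the si-Eos-labelled library and 17.1 in the si-RL-labelled library. Only the si-Eos-labelled library departed from the other 3, by 1.11 ± 0.20 against Treg (0.78 to 1.65 under the settings run). Psmb9 (chr17:33792517-33792576, mm8) read 41.5, 39.4, 33.4 and 19.3 in the same order. It was low in the si-RL-labelled library alone, at -1.03 ± 0.20 against Treg, one of the 2 genes called lower there. That call was lost with median centring (-0.94), quantile normalization (-0.99) and normexp background correction (-0.37). The Psmb6 to Psmb9 ratio was higher than in Treg in both hairpin libraries, by 1.35 ± 0.29 in the si-Eos-labelled library and 1.07 ± 0.29 in the si-RL-labelled library.

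Psmb7 (chr2:38435455-38455874, mm8) read 4.15 in naive cells, 4.14 in Treg, 6.13 in the si-Eos-labelled library and 3.95 in the si-RL-labelled library. Psmb10 (chr8:108824906-108824965, mm8) read 53.6, 44.5, 24.8 and 32.5 in the same order. It was the single gene of the 43 at its lowest in the si-Eos-labelled library, 0.84 below Treg on the log2 scale (-0.84 ± 0.20) and -0.39 ± 0.20 against the si-RL-labelled library. Psmb10 kept this side under every setting run, from -1.17 to -0.18 against Treg and from -0.57 to -0.33 against the si-RL-labelled library. The Psmb7 to Psmb10 ratio in the si-Eos-labelled library was 1.41 ± 0.29 above Treg (2.65-fold) and 1.02 ± 0.29 above the si-RL-labelled library. In the si-RL-labelled library that ratio was 0.39 ± 0.29 above Treg.

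The 3 ratios were thus above those in Treg in both hairpin libraries. For the si-Eos-labelled library they ranged from 0.95 to 1.07, from 1.24 to 1.35 and from 1.12 to 1.41 under the settings run, and for the si-RL-labelled library from 0.38 to 0.55, from 0.88 to 1.07 and from 0.09 to 0.40. In the si-Eos-labelled library Psmb5 and Psmb6 were higher than in Treg by more than their counterparts differed, and Psmb7 was higher where Psmb10 was lower. In the si-RL-labelled library Psmb9 was at -1.03 and Psmb6 at 0.05 against Treg. Under the settings run these ranged from -1.42 to -0.37 and from -0.34 to 0.51, so the part of each in the ratio followed the setting. Against the si-RL-labelled library the ratios were 0.54, 0.28 and 1.02, each ± 0.29, so that of Psmb6 to Psmb9 was within the scanner error. Between Treg and naive T cells they were 0.16, 0.07 and 0.26, all within that error. Over the class, the immunoproteasome median minus the median of the core was -0.78 to -0.58 for the si-Eos-labelled library against Treg, -0.31 to -0.10 for the si-RL-labelled library against Treg and -0.29 to -0.16 between the hairpin libraries, depending on the setting. These ratios show unequal change and not which protein was built into the particle.

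**Figure D4:**
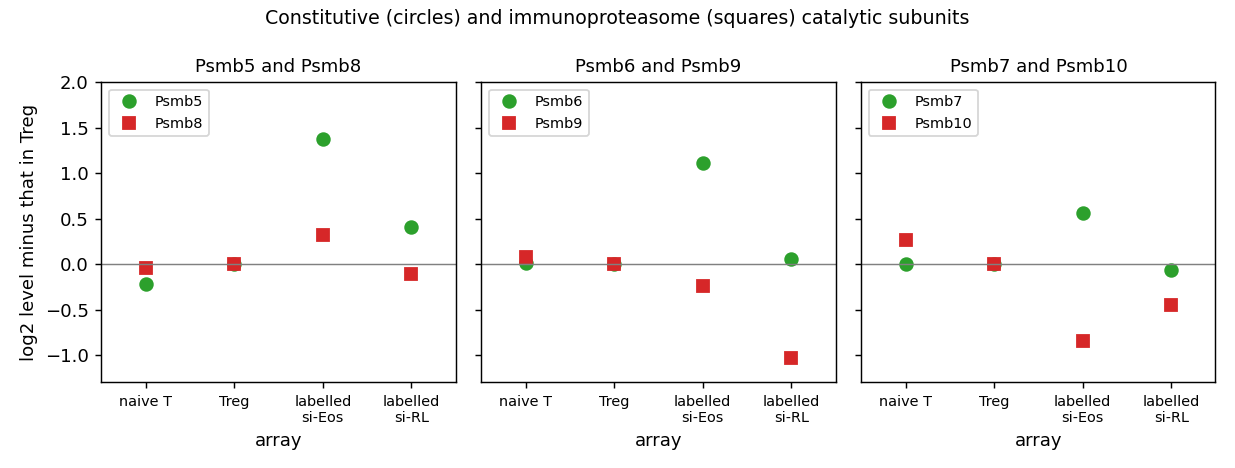
Log2 level minus that in Treg (y axis) on each of the 4 arrays (x axis) for each constitutive catalytic subunit (green circles) and the immunoproteasome subunit that replaces it (red squares), 1 array per point. In the si-Eos-labelled library the circles lie above the squares by 1.06, 1.35 and 1.41, and in naive T cells they lie within 0.26 of each other.

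Psmb8 and Psmb9 lie next to the peptide transporter genes Tap1 and Tap2 on chromosome 17, in the gene order Psmb9, Tap1, Psmb8, Tap2 of RefSeq's annotation. Tap1 read 3.96 in naive cells, 3.87 in Treg, 5.64 in the si-Eos-labelled library and 0.886 in the si-RL-labelled library. The last value stood apart from the other 3, at -2.13 ± 0.20 against Treg and 2.67 ± 0.20 in favour of the si-Eos-labelled library between the hairpin libraries. Psmb9 was also lowest in the si-RL-labelled library, whereas Psmb8 differed there by -0.11 ± 0.20 from Treg and Tap2 by -0.75 ± 0.20. Of 12 genes found of a list of class I presentation and interferon response, 5 were called lower and 0 higher in the si-RL-labelled library against Treg, beside 8.19% and 7.9% of all genes, with a list median of -0.87 (-1.26 to -0.40 under other scalings and normexp). They included Irf8 (-1.96 ± 0.20), Irf7 (-1.71 ± 0.21) and Irf9 (-1.36 ± 0.20), transcription factors of the interferon response, besides Tap1. Irf1, another such factor, was the 1 gene of the 12 that read higher there, at 0.19 ± 0.20. In the si-Eos-labelled library against Treg, 1 was called higher (Irf8, 2.69 ± 0.20) and 2 lower (Irf7, -2.39 ± 0.21, and Erap1, a peptidase that trims class I peptides, -1.12 ± 0.20), beside 8.83% and 10.1% of all genes. Between the hairpin libraries 2 were called higher in the si-Eos-labelled library and 0 lower, beside 10.7% and 10.2% of all genes, with a median of 0.55 (0.48 to 0.60). For Treg against naive T cells the median was -0.09, with Irf8 the 1 gene called (2.17 ± 0.20), beside 5.52% of all genes called higher and 2.03% lower.

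The base of the regulatory particle includes a ring of 6 ATPases, Psmc1 to Psmc6, which unfold the substrate. The name rule also found its scaffold and ubiquitin-binding subunits Psmd1, Psmd2 and Psmd4. All 9 of these genes were higher in the si-Eos-labelled library than in the si-RL-labelled library, by a median of 0.94, and 3 ATPases were called. Adrm1, a base subunit outside the rule, differed by 0.25 ± 0.20 between the hairpin libraries. Psmc5 (chr11:106078968-106079152, mm8) read 5.38 in naive cells, 5.29 in Treg, 8.59 in the si-Eos-labelled library and 3.28 in the si-RL-labelled library. The hairpin libraries thus lay on either side of 2 near-equal untransduced arrays, 1.39 ± 0.20 apart, with 1.32 on the second probe. Psmc3 (chr2:90857528-90857587, mm8) read 4.09, 4, 4.88 and 2.01 in the same order, a difference of 1.28 ± 0.20. Here the si-RL-labelled library was the one apart: it was 1.99-fold below Treg, just short of a call, while the si-Eos-labelled library was at 0.29 ± 0.20. Psmc4 read 4.76, 4.47, 7.39 and 3.61, a difference of 1.03 ± 0.20 between the hairpin libraries, with 1.33 on its second probe.

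Psmc1 had another pattern among the ATPases. It read 6.26 in naive cells, 6.03 in Treg, 12.1 in the si-Eos-labelled library and 9.2 in the si-RL-labelled library, so that both hairpin libraries were above Treg, by 2.01-fold and 1.52-fold, with log2 differences of 0.67 to 1.47 and 0.22 to 0.98 under the settings run. Psmc1 differed by 0.40 ± 0.20 between the hairpin libraries, the smallest difference among the ATPases. The Psmc2 probes disagreed. The probe used read 0.93 ± 0.20 between the hairpin libraries, and a dimmer probe for a cDNA clone read -1.04. Psmd1 and Psmd2, the large scaffold subunits, differed by 0.99 ± 0.20 and 0.94 ± 0.20 between the hairpin libraries, and the ubiquitin receptor Psmd4 by 0.72 ± 0.20, a sign that turned on its dimmer probe (-0.07). Psmd4 was the lowest of all 43 genes for Treg against naive T cells, at -0.29 ± 0.20, with levels of 11.7 and 9.55.

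The name rule found 8 subunits of the lid, among them Psmd14, the enzyme that cuts ubiquitin chains off the substrate, and its partner Psmd7. Sem1, a lid subunit outside the rule, differed by 0.21 ± 0.20 between the hairpin libraries. Psmd14 had the largest difference of all 43 genes between the hairpin libraries. Its probe (chr2:61598289-61600872, mm8) read 13.6 in naive cells, 13.2 in Treg, 19.3 in the si-Eos-labelled library and 6.09 in the si-RL-labelled library. Naive T cells and Treg were alike, and the hairpin libraries lay above and below them, 1.66 ± 0.20 apart (3.16-fold). Against Treg, Psmd14 was at -1.12 ± 0.20 in the si-RL-labelled library and 0.54 ± 0.20 in the si-Eos-labelled library. The call against Treg was lost with normexp background correction (-0.68), with the mean of all probes (-0.89) and with the second probe (-0.97). Between the hairpin libraries the second probe gave 1.42, and the remaining probe, for a cDNA clone, gave -0.07.

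Psmd8, a lid subunit that joins late in assembly, read 3.88 in both naive T cells and Treg, 8.32 in the si-Eos-labelled library and 2.98 in the si-RL-labelled library. It was called between the hairpin libraries (1.48 ± 0.20) and against Treg in the si-Eos-labelled library (1.10 ± 0.20), the latter with values from 0.77 to 1.49 under the settings run, so that this call was lost under some. Psmd6 read 5.55 in naive cells, 5.44 in Treg, 11 in the si-Eos-labelled library and 5.65 in the si-RL-labelled library, and was apart in the si-Eos-labelled library alone, by 1.02 ± 0.20 against Treg (0.69 to 1.45 under the settings run). Not all lid genes followed this pattern. Psmd11 read 14, 15, 21.5 and 20.6 in the same order, so that both hairpin libraries exceeded the untransduced arrays and differed from each other by 0.06 ± 0.20. Psmd7 likewise differed by 0.07 ± 0.20 between the hairpin libraries, with levels of 4.09, 4.52, 5.8 and 5.54. For both genes the sign of this small difference turned under other settings, which gave -0.11 to 0.12 for Psmd11 and -0.06 to 0.44 for Psmd7. The dimmest Psmd7 probe, for a cDNA clone, gave -0.69. Psmd3 had the largest difference for Treg against naive T cells, 0.47 ± 0.20, and read 20.3 in naive cells, 28.2 in Treg, 53.6 in the si-Eos-labelled library and 36.9 in the si-RL-labelled library. The remaining lid subunits Psmd12 and Psmd13 differed by 0.65 ± 0.20 and 0.51 ± 0.20 between the hairpin libraries. The lid was the 1 class of core, base and lid with a median above 0 for the si-RL-labelled library against Treg (0.25), a sign that turned with the scaling (-0.14 to 0.56).

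Psmd5, Psmd9 and Psmd10 (gankyrin) are chaperones that hold ATPases during assembly of the base and leave the finished particle. Psmd9 read 0.763 in naive cells, 0.776 in Treg, 1.32 in the si-Eos-labelled library and 0.5 in the si-RL-labelled library. The probe used gave 1.40 ± 0.21 between the hairpin libraries, but its other probe gave 0.22, so that the call rested on 1 of the 2 probes. Psmd10 read 2.91, 2.65, 2.88 and 1.77 in the same order and was low in the si-RL-labelled library alone. Psmd5 read 5.4, 4.77, 4.62 and 3.77, a difference of 0.29 ± 0.20 between the hairpin libraries. The chaperones of core assembly go by other names in the files. Psmg1 (listed as Dscr2) read 3.29, 2.9, 3.29 and 1.52, a difference of 1.11 ± 0.20 between the hairpin libraries. Psmg3 and Psmg2 differed by 0.76 ± 0.20 and 0.47 ± 0.20. Psmb11, the beta subunit of the thymus, is in the files under a clone name and read between 0.0359 and 0.0464 on the 4 arrays. Pomp, the maturation factor of the core, read 34.9 in naive cells, 37.7 in Treg, 65.2 in the si-Eos-labelled library and 28.4 in the si-RL-labelled library, a difference of 1.20 ± 0.20.

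The activators bind the ends of the core in place of the ATPase particle. Psme1 and Psme2 form PA28αβ, which interferon-γ induces together with the immunoproteasome, whereas Psme3 (PA28γ) and Psme4 (PA200) are nuclear activators. Psme3 and Psme4 were higher in both hairpin libraries than in Treg. Psme1 and Psme2 read lower, but in the si-Eos-labelled library only by -0.21 ± 0.20 and -0.10 ± 0.20. Psme1 (chr14:54535428-54535487, mm8) read 41.9 in naive cells, 40.4 in Treg, 35.1 in the si-Eos-labelled library and 23.9 in the si-RL-labelled library. It was lower in both hairpin libraries than on both untransduced arrays, most in the si-RL-labelled library (-0.76 ± 0.20 against Treg), but its sign for the si-Eos-labelled library against Treg turned under other settings (-0.54 to 0.45). Psme2 read 121, 109, 102 and 83.4 in the same order, with its lowest value in the same library, a sign against Treg that also turned (-0.78 to 0.22). Its signal may include the near-identical copy Psme2b.

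Psme3 (chr11:101138961-101139021, mm8) read 5.34 in naive cells, 5.27 in Treg, 9.78 in the si-Eos-labelled library and 9.48 in the si-RL-labelled library. It was thus higher in both hairpin libraries than on both untransduced arrays, by 0.89 ± 0.20 and 0.85 ± 0.20 against Treg, and the hairpin libraries differed by 0.05 ± 0.20. Psme4 read 7.97, 8.11, 11 and 11.8 in the same order and was the single gene of the 43 highest in the si-RL-labelled library. Its difference between the hairpin libraries was within the scanner error, at -0.10 ± 0.20 (-0.33 to -0.04 under the settings run). The Psme3 to Psme1 ratio exceeded that in Treg by 1.61 ± 0.29 in the si-RL-labelled library (3.05-fold) and by 1.10 ± 0.29 in the si-Eos-labelled library, with ranges of 1.39 to 1.61 and 0.89 to 1.10 under the settings run. Both values rest on the same Treg array. The core inhibitor Psmf1 differed by 0.72 ± 0.21 between the hairpin libraries on the probe used, higher in the si-Eos-labelled library. Its second probe gave 0.60, and the sign turned on its dimmest probe (-0.26).

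Psma8, which replaces Psma7 in the testis, was well above background in Treg and in the si-Eos-labelled library and not in naive T cells or the si-RL-labelled library. Its level in Treg was at least 1.76-fold that in naive T cells, and between the hairpin libraries the same bound was at least 1.64-fold higher for si-Eos. Its signal was 20.3 at most, near the lowest measured on these arrays. Psmc3ip differed by 1.05 ± 0.21 between the hairpin libraries, with 1.06 on its other probe. Leaving both genes out took the measured genes between the hairpin libraries from 43 to 42 and those called higher from 9 to 8.

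Probes of 1 gene mostly gave near values. Between the hairpin libraries, 22 other measured probes of 17 genes differed from the probe used by a median of 0.26 and at most 1.97 (Psmc2), and 5 of 22 had the opposite sign. Among the 17 that carry a RefSeq mRNA accession, 1 had the opposite sign (Psmf1). Which exon or untranslated region each probe covers was not analysed here.

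Genes that work with the proteasome were described from a list of 22, of which 21 were found and measured. Between the hairpin libraries 3 of 21 were called higher in the si-Eos-labelled library and 2 lower, near the 10.7% and 10.2% of all genes, with a list median of 0.43 (0.36 to 0.49 under other scalings and normexp) beside 0.65 for the proteasome genes. Those higher were Pomp, the proteasome-bound deubiquitinase Uchl5 (1.19 ± 0.20) and the proteasome-associated thioredoxin Txnl1 (1.32 ± 0.20). Those lower were Ddi2, the protease that activates Nrf1 (-1.66 ± 0.20), and the shuttle factor Ubqln2 (-1.61 ± 0.21). Nfe2l1, the Nrf1 gene, read 3.84 in naive cells, 4.49 in Treg, 6.2 in the si-Eos-labelled library and 3.87 in the si-RL-labelled library, and differed by 0.68 ± 0.20 between the hairpin libraries. Ddi2 read 3.64, 3.16, 1.6 and 5.08 in the same order, so that it was lowest where Nfe2l1 was highest. Against Treg, 4 of 21 were called higher in the si-Eos-labelled library and 0 lower, beside 8.83% and 10.1% of all genes: Nploc4 (1.34 ± 0.20), a cofactor of the unfoldase Vcp; Txnl1 (1.26 ± 0.20); Uba1, the main ubiquitin-activating enzyme (1.24 ± 0.20); and the shuttle factor Rad23b (1.02 ± 0.20). In the si-RL-labelled library, Ubqln2 was the 1 gene called higher against Treg (1.16 ± 0.21), beside 7.9% of all genes, and 0 were called lower, beside 8.19%. Between Treg and naive T cells, Nfe2l2, the stress-response relative of Nfe2l1, was called lower in Treg (-1.42 ± 0.20), beside 2.03% of all genes, and no other gene of the list was called.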

How the data were processed

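RNA of 4 samples was hybridised to Agilent 1-colour arrays, 1 per group. Per the file headers, Feature Extraction 9.5.3.1 gave each spot a linear intensity with the background subtracted and no scaling between arrays, and probes were placed on build mm8. The series value table held the same intensity values, as deposited by the authors (median ratio 1.00). Spots flagged as outliers (71 to 94 of 43379 per array, 0 of them on proteasome probes) were left out, and no spot was saturated. From the processed signal, log2 minus each array's 75th percentile over non-control probes was computed with Python 3.11.15, numpy 2.4.6 and pandas 2.3.3, and normexp with limma 3.58.1 in R 4.3.3 (offset 50). One probe per gene was used, the brightest over the arrays, and a gene counted as measured where it was well above background on both arrays. The counting step was run on simulated differences with planted changes and scanner error alone. That run did not cover the spread between samples or between probes.

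No test was run: the number of arrays limits the precision, and each scanner error leaves out the spread between samples and between probes. The rule for named genes was the catalytic pairs, Psme1 and Psme2, every gene called, the largest differences each way in each class, and up to 4 called genes of each related list. The genes and lists were chosen with earlier results of these data known. One listed gene of class I presentation and interferon response is not reported here and was left out of that list's counts. Symbols of the related lists were matched through RefSeq's GRCm38.p6 table. The 10 alternatives covered scaling, background correction, probe choice, filters and source of values.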

Additional observations from a re-analysis of the deposited data

Results flagged for a closer look

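Of the proteasome genes, 2 lay on opposite sides of untransduced Treg in the hairpin libraries with a 2-fold call on at least 1 side. Psmd14 was 0.54 above Treg in the si-Eos-labelled library and at -1.12 in the si-RL-labelled library, a gap of 1.66. Psmd8 was 1.10 above Treg in the si-Eos-labelled library and at -0.38 in the si-RL-labelled library, a gap of 1.48. Its value in the si-RL-labelled library ranged from -0.77 to 0.02 under the settings run, so that its side of Treg turned. Neither gap was tested, because each group is 1 array and both values of a gene share the Treg array.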

How the results depend on the processing

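For Treg against naive T cells the proteasome median was -0.22 with median centring, 0.28 with spike-in scaling and -0.36 with normexp background correction. For the si-RL-labelled library against Treg it was -0.61 with spike-in scaling, with 8 genes called lower, and it reversed to 0.24 with normexp, with 3 called higher and 0 lower; median centring and the mean of all probes each left 1 called lower. For the si-Eos-labelled library against Treg, 3 genes were called higher with the percentile over probes detected on all arrays and 1 with quantile normalization. Spike-in scaling gave a median of 0.21 with 1 called higher and 1 lower, and normexp a median of 0.98 with 21 higher and 1 lower. Between the hairpin libraries the second brightest probe gave 1 gene called lower. The cause of these shifts was not tested. Spike-in scaling moved the median of all genes to -0.40 and -0.27 for the si-RL- and si-Eos-labelled libraries against Treg, and normexp to -0.31 and -0.36. Relative to it, the proteasome median between the hairpin libraries was 0.52 higher with quantile normalization and 0.78 with normexp, the ends of the range among the settings that filter dim probes. Over all genes, normexp turned the calls between the hairpin libraries from 1832 higher and 1744 lower to 1139 and 838, and those against Treg to 964 and 4485 for the si-RL-labelled library and 1449 and 5900 for the si-Eos-labelled library; spike-in scaling gave 650 and 3047, and 912 and 2872. Values of single genes were counted across the alternatives only for genes called in a comparison and for the catalytic pairs, Psme1 and Psme2. Of these values, 456 kept their side of the 2-fold threshold, 23 dropped below it, 4 passed it, and 0 of those called changed sign. Other genes that passed the threshold under an alternative are not in these counts. No paired analysis was possible because each group is 1 array. Signal over background limits Psma8, and the single array per group limits every value.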
